A study of Mus musculus with 6 samples.

Results

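The genes described here encode 10 cytokine receptor chains of the mouse colon, chosen by name: Il4ra, Il13ra1, Il2rg, Csf2ra, Csf2rb, Csf2rb2, Il10ra, Il10rb, Il22ra1 and Il17ra. The choice was made with earlier results of these data known. All 10 stood among the 16906 protein-coding rows of a table of read counts, and all 10 were among the 14126 genes that passed the filter on low counts and were tested. The tested tissue was colon given 5% w/v TNBS (trinitrobenzenesulfonic acid, a hapten that provokes inflammation of the bowel wall and serves as a model of Crohn's disease), and its control was normal colon, with 3 libraries each. All mice were labelled as wild-type C57BL/6J males, 6 to 8 weeks old and weighing 20 to 22 g. The controls were labelled for normal feeding alone, so effects of TNBS and of the procedure cannot be told apart. No label gives the time after TNBS or says whether a library holds 1 animal or several, so a p-value here measures the variation among these samples, part of which may be technical.

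Cytokine receptors of class I and class II have no enzyme of their own. They work as pairs or larger sets of chains that bring Janus kinases (JAKs) together, and the JAKs phosphorylate STAT transcription factors. Several chains are shared: the common gamma chain Il2rg serves the receptors for IL-2, IL-4, IL-7, IL-9, IL-15 and IL-21, the common beta chain Csf2rb those for GM-CSF, IL-3 and IL-5, and Il10rb those for IL-10, IL-22 and interferon lambda. In the gut, IL-4 and IL-13 act on epithelium and macrophages, GM-CSF on myeloid cells, IL-10 restrains myeloid cells, and IL-22 acts on the epithelium to induce antimicrobial proteins. Not every chain in the set is of class I. Il10ra, Il10rb and Il22ra1 are class II chains, and Il17ra belongs to the separate IL-17 receptor family, which signals through the adaptor Traf3ip2 (Act1).

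Class I chains carry the motif Trp-Ser-X-Trp-Ser (WSXWS) near the membrane, outside the cell, and the codons for it are shown for the genes that hold them. In the coding sequences of GENCODE vM21 transcripts (build GRCm38), 5 of the 10 genes held codons for the motif in frame, printed with 10 codons on each side and the motif in capitals. The first motif codon is codon 213 of 810 in Il4ra, 324 of 424 in Il13ra1, 238 of 369 in Il2rg, 428 of 896 in Csf2rb and 427 of 878 in Csf2rb2.
Il4ra: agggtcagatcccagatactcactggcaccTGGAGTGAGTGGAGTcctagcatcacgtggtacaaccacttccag
Il13ra1: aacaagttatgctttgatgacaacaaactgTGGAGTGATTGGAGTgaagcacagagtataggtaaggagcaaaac
Il2rg: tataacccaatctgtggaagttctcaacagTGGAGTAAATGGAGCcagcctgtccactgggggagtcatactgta
Csf2rb: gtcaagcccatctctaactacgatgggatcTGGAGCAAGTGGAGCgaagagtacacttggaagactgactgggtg
Csf2rb2: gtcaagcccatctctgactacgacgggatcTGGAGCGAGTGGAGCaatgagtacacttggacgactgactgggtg
The other 5 genes held no such codons. They were Csf2ra (388 codons), the class II chains Il10ra (575), Il10rb (351) and Il22ra1 (581), and Il17ra (864). Csf2ra is counted as a class I chain, and the absence of the exact letters says nothing more about it.

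The libraries held 20537026, 15185569 and 18381576 counts in TNBS colon, against 22999588, 23380492 and 21624206 in normal colon. Levels are given as CPM (counts scaled to library size with edgeR's TMM), and 3 counts correspond to 0.128 to 0.198 CPM. The TNBS libraries differed among themselves in ways the groups do not explain. Summed transcripts of Y-linked genes stood at 0.697%, 103% and 38.2% of the normal mean in TNBS replicates 1, 2 and 3, against 92.1% to 114% in normal colon. Hoxb6, a homeobox gene of regional identity, had levels of 8.95, 79.3 and 80.6 CPM in those libraries, against 3.36 to 11.5 CPM in normal colon. Hoxb13, another homeobox gene, went the opposite way, at 21.4, 0.194 and 0.308 CPM. In normal replicates 1, 2 and 3 it stood at 106, 57.7 and 7.37 CPM, so the normal libraries were uneven as well. The low Y-linked values of TNBS replicates 1 and 3 are at odds with the label of all mice as male. Effects of sex and of TNBS therefore cannot be fully told apart here, also for Il13ra1 and Il2rg on chromosome X. The part of these differences in the receptor results was not tested. Calls on the receptors are therefore also given without TNBS replicate 1, with TNBS replicate 2 alone (dropping the libraries poor in Y-linked transcripts), and with TNBS replicate 1 alone (dropping those rich in Hoxb6). These fits also change how many calls are made over all genes. Without TNBS replicate 1, 532 of 14499 genes were called higher and 576 lower, against 128 and 161 of 14126 with all 6 libraries. Without any other 1 library, 7 to 43 were called higher and 11 to 51 lower. A receptor call held, gained or lost in these fits is to be read beside these totals. A lone TNBS library is assumed to vary like the normal ones.

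In TNBS colon Il4ra and Csf2rb2 rose, by 2.6-fold and 3.89-fold, and Il22ra1 fell, to 0.449 of its normal level. Il4ra is the chain that binds IL-4, Csf2rb2 the mouse beta chain for IL-3, and Il22ra1 the chain that gives the IL-22 receptor its specificity. The other 7 genes did not pass the test, although Csf2rb was higher in every TNBS library than in any normal one. The test was edgeR's quasi-likelihood test with Benjamini-Hochberg adjustment over all 14126 genes and a threshold of 0.05. It called 2 of the 10 receptor genes higher, where 0.906% of all tested genes were called higher, and 1 of 10 lower, where 1.14% were. The 10 were chosen with earlier results of these data known, so the shares and medians here describe the set and are no test of it. At an unadjusted p under 0.05 there were 3 higher and 2 lower. DESeq2 called 3 of 10 higher (Il4ra, Csf2rb and Csf2rb2), beside 4.75% of all tested genes, and Il22ra1 lower, beside 4.67%. Limma-voom called Il4ra and Csf2rb2 higher, beside 0.566% of all tested genes, and Il22ra1 lower, beside 1.03%. All TNBS values lay above all normal values for 3 of the 10, compared with 15.3% of tested genes, and below them for 1, compared with 14.8%, and the share below is near that of all genes. The median log2 fold change of the 10 was 0.54, against 0.01 over all tested genes, with 7 positive and 3 negative. Colon was measured as whole tissue, so fewer cells of a type and less RNA per cell cannot be told apart in any of these values.

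**Figure D1:**
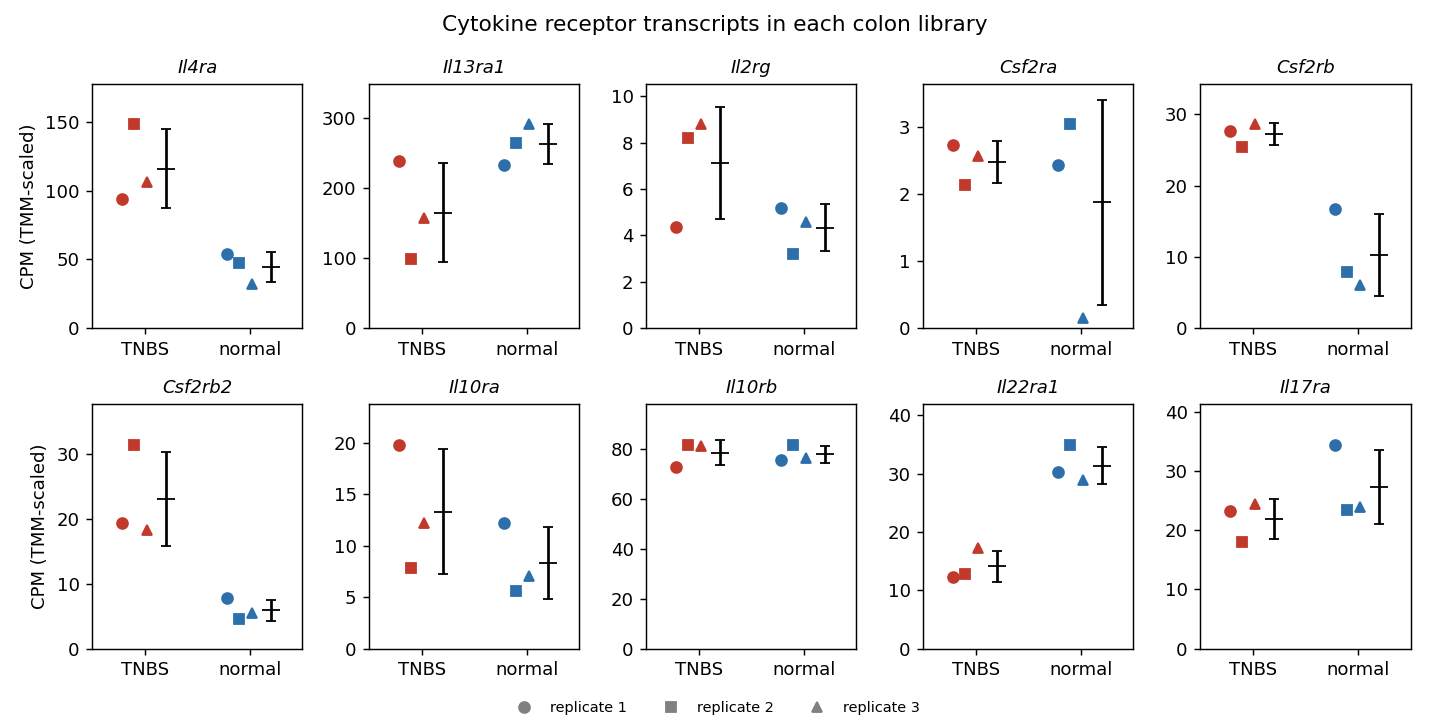
Level of each of the 10 receptor genes in CPM (TMM-scaled, linear axes that start at 0 and differ between panels) in the 3 TNBS libraries (red, left) and the 3 normal libraries (blue, right). Symbols give the replicate number and bars the mean ± SD over n = 3. All TNBS points lie above all normal points for Il4ra, Csf2rb and Csf2rb2 and below them for Il22ra1, and the groups overlap in the other 6 panels.

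Il4ra and Il13ra1 together form the type II receptor for IL-4 and IL-13, and Il4ra with Il2rg forms the type I receptor for IL-4. Il4ra (ENSMUSG00000030748, chr7:125552120-125579474, plus strand) had 2062, 2288 and 2073 counts in TNBS colon, against 1243, 1042 and 643 in normal colon. These counts correspond to 93.7, 148 and 106 CPM in TNBS colon and 54.2, 47.2 and 32.5 CPM in normal colon. The lowest TNBS library thus stood well above the highest normal one. The means were 116 ± 28.4 CPM in TNBS colon and 44.6 ± 11.1 CPM in normal colon (SD, n = 3 each), a log2 fold change of 1.38 (SE 0.25, 95% interval 0.81 to 1.94, edgeR adjusted p = 0.0358). The call held without TNBS replicate 1 (log2 fold change 1.51, edgeR adjusted p = 0.0131) and with TNBS replicate 2 alone (1.72, adjusted p = 0.0254), and was lost with TNBS replicate 1 alone (1.07, adjusted p = 0.419). It was also lost without TNBS replicate 2 (1.17, adjusted p = 0.0944), TNBS replicate 3 (1.44, adjusted p = 0.0805), normal replicate 1 (1.55, adjusted p = 0.0663), normal replicate 2 (1.43, adjusted p = 0.152) or normal replicate 3 (1.19, adjusted p = 0.0992). Of the 50-base stretches of its transcripts, 8.44% also occur in other genes, most of all in the antisense gene Gm44876, which has no row in the table. Without a stated strand the reads of Gm44876 cannot be told apart from those of Il4ra.

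Il13ra1 (chromosome X, 36112110 to 36171259, plus strand), the IL-13-binding chain, had the highest level of the set in both groups but no call. It stood at 239, 98.3 and 157 CPM in TNBS colon and at 233, 265 and 291 CPM in normal colon. TNBS replicate 1 lay inside the normal range and the other 2 TNBS libraries below it. The log2 fold change was -0.67 (SE 0.30, 95% interval -1.35 to -0.00, edgeR adjusted p = 0.237). Il13ra1 was called lower without TNBS replicate 1 (-1.05, edgeR adjusted p = 0.0394), a fit in which 576 of 14499 genes were called lower. With TNBS replicate 2 alone the log2 fold change of Il13ra1 was -1.43. Il2rg (chromosome X, 101264378 to 101268255, minus strand) stood at 4.36, 8.21 and 8.78 CPM in TNBS colon and at 5.19, 3.22 and 4.59 CPM in normal colon. TNBS replicate 1 again lay among the normal values. The log2 fold change of Il2rg was 0.71 with a 95% interval of -0.22 to 1.64 (edgeR adjusted p = 0.347), which spans no difference and a more than 3-fold rise. Of its 50-base stretches 27.5% also occur in other genes, most of all in an overlapping locus, Gm20489, that is not in the table.

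The balance of the chains was read as a ratio of counts within each library, which needs no scaling. The Il4ra count was 0.392, 1.51 and 0.678 times that of Il13ra1 in the TNBS libraries, against 0.233, 0.178 and 0.111 times in the normal libraries. Every TNBS ratio was above every normal one, with a geometric mean 4.42-fold higher (log2 difference 2.14). The exact two-sided permutation p was 0.1, the smallest that 3 against 3 libraries allow, and 0.2 after adjustment over the 16 ratios computed, so none of the 16 could pass 0.05. The ratio of Il4ra to Il2rg was 21.4, 17.9 and 12.1 in TNBS colon and 10.4, 14.6 and 7.03 in normal colon. These ranges overlapped (log2 difference 0.71, exact permutation p = 0.2).

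The receptors for GM-CSF, IL-3 and IL-5 pair a chain specific to each cytokine with a beta chain. Mice have a pair of beta chain genes, Csf2rb, which is shared by the 3 cytokines, and Csf2rb2, which serves IL-3 alone. They lie 20030 bases apart on chromosome 15 in opposite directions, Csf2rb2 (ENSMUSG00000071714) at chr15:78282507-78305721 on the minus strand and Csf2rb at chr15:78325752-78353847 on the plus strand. Their coding sequences are near copies: 2503 of 2628 aligned bases (95.2%) were identical, with a longest identical run of 242 bases. The first 90 coding bases are shown because their 3 differences, in capitals, equal the median over the 74 windows of this length, which held 0 to 14.
Csf2rb2: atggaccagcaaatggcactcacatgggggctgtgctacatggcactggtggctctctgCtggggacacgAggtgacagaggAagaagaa
Csf2rb: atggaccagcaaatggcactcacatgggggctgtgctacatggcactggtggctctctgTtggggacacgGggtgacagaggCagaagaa
Of the 50-base stretches of Csf2rb2 transcripts 18.9% also occur in other genes, most of all in Csf2rb. Of those of Csf2rb 12.3% also occur in other genes, most of all in Csf2rb2. How reads from shared stretches were assigned is not given in the sources used here, so the split between the pair is uncertain.

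Csf2rb2 had 426, 485 and 357 counts in TNBS colon, against 177, 101 and 107 in normal colon. On the scaled level it stood at 19.4, 31.4 and 18.3 CPM in TNBS colon and at 7.72, 4.58 and 5.4 CPM in normal colon. Each TNBS library was more than 2 times the highest normal library. The log2 fold change was 1.96 (SE 0.33, 95% interval 1.22 to 2.70, edgeR adjusted p = 0.03), the largest of the 10. The call held without TNBS replicate 1 (2.07, edgeR adjusted p = 0.0137), with TNBS replicate 2 alone (2.40, adjusted p = 0.0209) and without normal replicate 1 (2.21, adjusted p = 0.0485). It was lost without TNBS replicate 2 (1.68, adjusted p = 0.0819), TNBS replicate 3 (2.10, adjusted p = 0.0562), normal replicate 2 (1.82, adjusted p = 0.146) or normal replicate 3 (1.90, adjusted p = 0.103), and with TNBS replicate 1 alone (1.72, adjusted p = 0.291).

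Csf2rb had 609, 394 and 557 counts in TNBS colon, against 385, 174 and 120 in normal colon. Its level was close in the TNBS libraries, at 27.7, 25.5 and 28.6 CPM, and spread in the normal ones, at 16.8, 7.89 and 6.06 CPM. The groups did not overlap, but the log2 fold change of 1.41 (SE 0.37, 95% interval 0.58 to 2.24) missed the threshold (edgeR adjusted p = 0.0904). It passed without normal replicate 1, the highest normal library (1.97, adjusted p = 0.0457), and with DESeq2 (1.40, adjusted p = 0.00822). Summing the pair into 1 gene, which does not depend on the split, gave 47, 56.8 and 46.9 CPM in TNBS colon and 24.5, 12.5 and 11.5 CPM in normal colon. The sum was called higher, with a log2 fold change of 1.64 (SE 0.31, edgeR adjusted p = 0.0372). Within a library the ratio of Csf2rb2 to Csf2rb counts was 0.7, 1.23 and 0.641 in TNBS colon and 0.46, 0.582 and 0.892 in normal colon, ranges that overlapped (exact permutation p = 0.4, adjusted p = 0.457).

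Csf2ra (chr19:61223957-61228429, minus strand), the chain that binds GM-CSF alone, was the lowest of the set. It had 60, 33 and 50 counts in TNBS colon, against 56, 67 and 3 in normal colon. Normal replicate 3 stood apart from the other normal libraries and the groups overlapped. The log2 fold change was 0.40 with a 95% interval of -1.56 to 2.35 (edgeR adjusted p = 0.82), or from 0.339 to 5.11 times normal as a fold, so smaller changes were not detectable in these counts. Without normal replicate 3 the log2 fold change was -0.14. The ratio of Csf2rb to Csf2ra was 10.1, 11.8 and 11 in the TNBS libraries and 6.82, 2.59 and 34.4 in the normal ones (exact permutation p = 0.7).

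The stretch before the start of Csf2rb2 is shown because it was the only one of the 6 promoters of the set held in the RefSeq promoter table that carried TTCNNNGAA, the form of site that STAT factors bind. It lies at chr15:78305722-78305971, minus strand, in GRCm38.p6, with the match in capitals.
Csf2rb2 promoter: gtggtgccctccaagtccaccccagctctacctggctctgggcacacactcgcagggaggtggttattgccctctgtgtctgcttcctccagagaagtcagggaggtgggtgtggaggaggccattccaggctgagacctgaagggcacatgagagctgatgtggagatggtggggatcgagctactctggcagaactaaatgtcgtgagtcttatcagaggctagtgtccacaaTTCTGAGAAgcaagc
The pattern reads the same on both strands and was searched over the 250 bases before each start, where it begins at base -15 in Csf2rb2. It occurred in 2306 of 32851 RefSeq promoters (7.02%), so 1 match among 6 promoters is a description and shows no site in use. The promoters of Il4ra, Il13ra1, Csf2ra, Il22ra1 and Il2rg held no match in this window.

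**Figure D2:**
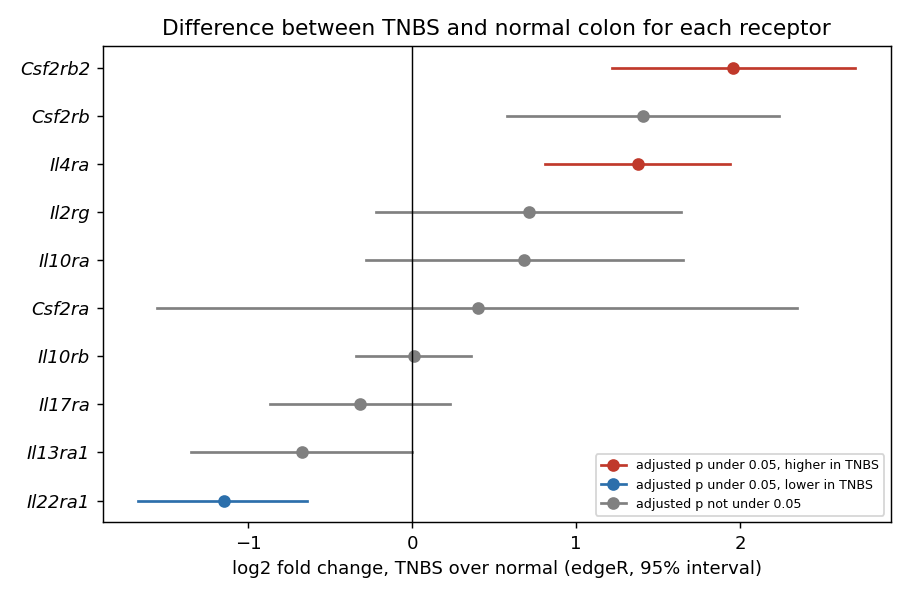
Log2 fold change of TNBS over normal colon for each of the 10 receptor genes, with 95% intervals from the edgeR fit (n = 3 libraries each) and colours for called genes. Il4ra (1.38) and Csf2rb2 (1.96) lie above 0 and Il22ra1 (-1.15) below it among the called genes. Csf2rb (1.41) has an interval above 0 without a call after adjustment.

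Il10rb pairs with Il10ra in the receptor for IL-10 and with Il22ra1 in the receptor for IL-22. Il22ra1 is found on epithelial and other non-haematopoietic cells. Il22ra1 (ENSMUSG00000037157, chr4:135728172-135752140, plus strand) had 271, 198 and 335 counts in TNBS colon, against 695, 773 and 572 in normal colon. Its level was 12.3, 12.8 and 17.2 CPM in TNBS colon and 30.3, 35 and 28.9 CPM in normal colon. The 3 TNBS libraries lay close together and all below the normal ones. The means were 14.1 ± 2.69 CPM in TNBS colon and 31.4 ± 3.22 CPM in normal colon (SD, n = 3 each), a log2 fold change of -1.15 (SE 0.23, 95% interval -1.67 to -0.64, edgeR adjusted p = 0.0413). The call held without TNBS replicate 1 (-1.07, edgeR adjusted p = 0.0415). It was lost without TNBS replicate 2 (-1.09, adjusted p = 0.127), TNBS replicate 3 (-1.32, adjusted p = 0.0843), normal replicate 1 (-1.17, adjusted p = 0.112), normal replicate 2 (-1.05, adjusted p = 0.196) or normal replicate 3 (-1.21, adjusted p = 0.0965). It was also lost with TNBS replicate 2 alone (-1.30, adjusted p = 0.0719) and with TNBS replicate 1 alone (-1.35, adjusted p = 0.286).

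Il10rb (chr16:91406164-91425834, plus strand), the shared chain, stood at 72.9, 81.6 and 81.2 CPM in TNBS colon and at 75.5, 81.8 and 76.4 CPM in normal colon. The groups overlapped almost wholly. Its log2 fold change was 0.01 with a 95% interval of -0.34 to 0.36 (edgeR adjusted p = 0.971), or from 0.791 to 1.29 times normal as a fold. Of its 50-base stretches 13.9% also occur in other genes, most of all in the overlapping locus Gm21970, which has no row in the table. The ratio of Il22ra1 to Il10rb within a library was 0.169, 0.157 and 0.212 in TNBS colon, against 0.402, 0.428 and 0.378 in normal colon. All TNBS ratios were below all normal ones, at 0.442 of the normal geometric mean (exact permutation p = 0.1, the smallest possible, adjusted p = 0.2).

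Il10ra (chr9:45253837-45269149, minus strand), the chain that binds IL-10 and is found mainly on leukocytes, stood at 19.8, 7.82 and 12.2 CPM in TNBS colon and at 12.2, 5.57 and 7.07 CPM in normal colon. The groups overlapped, and the log2 fold change was 0.68 (95% interval -0.28 to 1.65, edgeR adjusted p = 0.381). With TNBS replicate 2 alone it was -0.09. The ratio of Il10ra to Il10rb was 0.271, 0.0962 and 0.151 in the TNBS libraries and 0.162, 0.0684 and 0.0928 in the normal ones (exact permutation p = 0.4). Il17ra (chr6:120463247-120487559, plus strand), the chain shared by the receptors of the IL-17 family, stood at 23.2, 18 and 24.4 CPM in TNBS colon and at 34.5, 23.4 and 23.9 CPM in normal colon. Normal replicate 1 was the highest library and the groups overlapped. The log2 fold change of Il17ra was -0.32 (SE 0.24, 95% interval -0.87 to 0.23, edgeR adjusted p = 0.477).

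**Figure D3:**
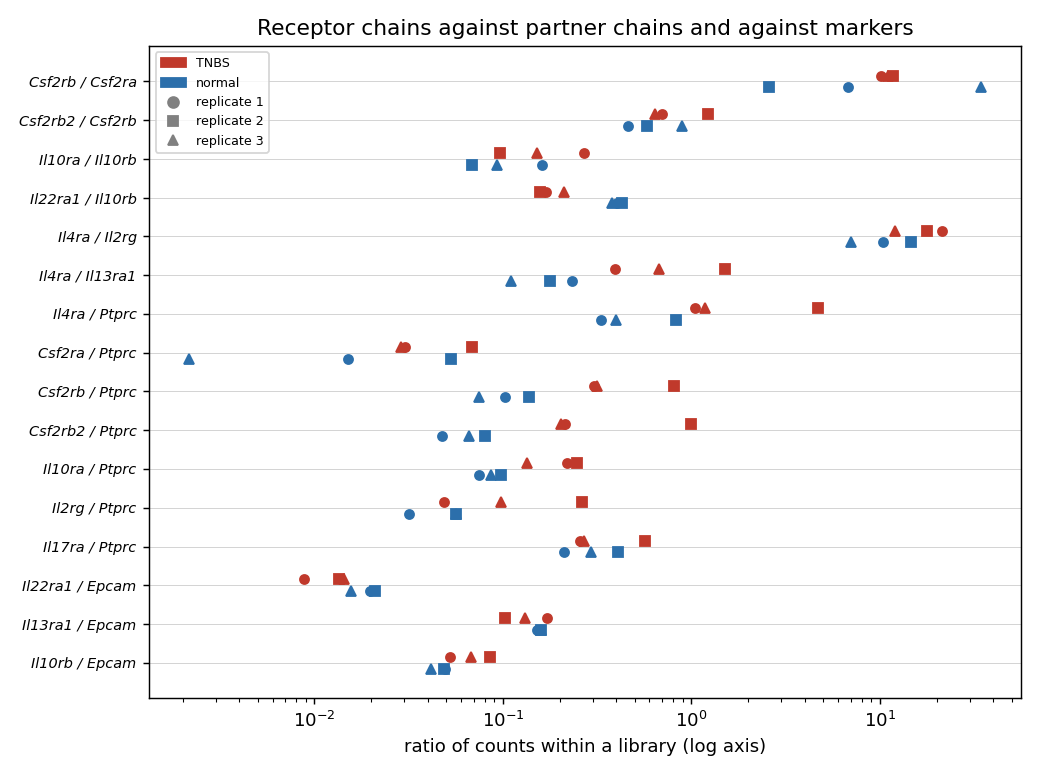
Ratio of the counts of 2 genes within each library (log axis) for pairs of receptor chains and for receptor chains against Ptprc or Epcam, with TNBS libraries in red and normal libraries in blue. Il4ra to Il13ra1 lies at 0.392 to 1.51 in TNBS colon, above 0.111 to 0.233 in normal colon. Il22ra1 to Il10rb lies at 0.157 to 0.212 in TNBS colon, below 0.378 to 0.428 in normal colon.

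Levels of different chains were compared as CPM per kilobase of exon. In TNBS colon Il13ra1 led with 44.4 ± 19.1 CPM per kb, followed by Il10rb at 20.6 ± 1.29 and Il4ra at 19.3 ± 4.73 (SD, n = 3). The ranges of Il10rb and Il4ra overlapped, and those of Il13ra1 and Il10rb did not. Below a gap came Il22ra1 (5.49 ± 1.05 CPM per kb), Csf2rb2 (4.85 ± 1.53), Il10ra (3.79 ± 1.73), Csf2rb (3.74 ± 0.22), Il2rg (2.98 ± 1.01) and Il17ra (2.52 ± 0.395), each overlapping the next, and then Csf2ra at 0.862 ± 0.107 CPM per kb. In normal colon Il13ra1 (70.9 ± 7.94 CPM per kb), Il10rb (20.5 ± 0.901), Il22ra1 (12.2 ± 1.25) and Il4ra (7.44 ± 1.85) followed each other without overlap. Below them in normal colon were Il17ra (3.15 ± 0.721 CPM per kb), Il10ra (2.36 ± 0.989), Il2rg (1.82 ± 0.424), Csf2rb (1.41 ± 0.79), Csf2rb2 (1.24 ± 0.344) and Csf2ra (0.654 ± 0.531), each overlapping its neighbour. Il4ra thus stood above Il22ra1 in TNBS colon and below it in normal colon, with no overlap between the 2 genes in either group.

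Markers of the cells that carry these receptors were read beside them, with calls by edgeR over the tested markers and summed levels over all listed markers in the table. The marker lists and the gene lists below were chosen with earlier results of these data known, so counts over them are descriptions. Over all tested genes edgeR called 0.906% higher and 1.14% lower. Neutrophils carry GM-CSF receptors. Of 8 tested neutrophil markers 4 were called higher (S100a8, S100a9, Cxcr2 and Mmp8) and none lower. The 10 neutrophil markers in the table summed to 79.9, 284 and 113 CPM in TNBS colon, against 16.7, 12.6 and 2.62 CPM in normal colon. Endothelial markers had 2 of 7 called higher (Cdh5 and Vwf), with summed levels of 294, 485 and 314 CPM in TNBS colon and 187, 176 and 193 CPM in normal colon. TNBS replicate 2 had the highest sum for both lists, and the highest level of Il4ra and Csf2rb2. The largest part of its neutrophil sum was Ly6g, which was not called, at 17, 133 and 51.9 CPM in TNBS colon and 15, 10.6 and 1.36 CPM in normal colon. S100a8, S100a9, Ly6g, Mmp8, Ltf and Ngp were highest in TNBS replicate 2, but Cxcr2, Csf3r, Retnlg and Trem1 in TNBS replicate 1. For the GM-CSF receptor chains Csf2rb (25.5 CPM) and Csf2ra (2.13 CPM) TNBS replicate 2 was the lowest TNBS library. The 4 neutrophil calls became 1 without normal replicate 3, 1 with limma-voom, 1 with TNBS replicate 1 alone and 6 with DESeq2. The 2 endothelial calls became 0 without any library other than TNBS replicate 1, 0 with TNBS replicate 1 alone, 4 without it, and 4 with DESeq2.

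For the other 8 marker lists edgeR made no call with all 6 libraries, and limma-voom made none. Leukocyte markers (8 tested, 1 higher and none lower at an unadjusted p under 0.05) summed to 296, 127 and 258 CPM in TNBS colon and 451, 195 and 197 in normal colon, and DESeq2 called none. Macrophage markers (9 tested, 2 higher and 0 lower unadjusted) summed to 712, 277 and 544 CPM in TNBS colon and 534, 387 and 360 in normal colon, and DESeq2 called Itgam higher. T cell markers (10 tested, 3 higher and 1 lower unadjusted) summed to 56.7, 61.9 and 87.1 CPM in TNBS colon and 68.3, 36.9 and 33.9 in normal colon, and DESeq2 called Cd3g and Cd8a higher. These 3 sums overlapped between the groups. Markers of B and plasma cells (6 tested, 0 higher and 2 lower unadjusted) summed to 652, 229 and 810 CPM in TNBS colon and 2513, 2362 and 1610 in normal colon, and DESeq2 called 2 lower. Markers of mast cells and eosinophils (5 tested, none under 0.05 unadjusted) summed to 171, 65.1 and 129 CPM in TNBS colon and 176, 186 and 196 in normal colon, and DESeq2 called none. Nearly all of this sum was Kit, at 164, 63.6 and 123 CPM in TNBS colon and 171, 179 and 193 in normal colon. The sum therefore describes Kit and not the other genes of the list, of which Prg2 was higher in every TNBS library than in any normal one. Smooth muscle markers (7 tested, 0 higher and 3 lower unadjusted) summed to 5585, 3644 and 5827 CPM in TNBS colon and 6777, 7512 and 8904 in normal colon, and DESeq2 called Actg2, Cnn1 and Des lower. For each of these 3 lists all TNBS sums lay below all normal sums. Fibroblast markers (7 tested, 1 higher and 0 lower unadjusted) summed to 3767, 843 and 1687 CPM in TNBS colon and 2361, 2138 and 2151 in normal colon, and DESeq2 called none. Epithelial markers (10 tested, 1 higher and 3 lower unadjusted) summed to 10880, 14616 and 13694 CPM in TNBS colon and 12498, 14389 and 12867 in normal colon, so the labelled tissue carried its defining genes in every library, and DESeq2 called Krt20 lower.

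Without TNBS replicate 1, edgeR called 3 smooth muscle markers and 1 marker of B and plasma cells lower and 1 T cell marker higher. Over all genes that fit called 532 of 14499 higher and 576 lower. TNBS replicates 2 and 3 stood below every normal library for 4 of the 7 fibroblast markers. These were Col1a1 (21.1 and 86.1 CPM), Col1a2 (79.2 and 236), Col3a1 (172 and 571) and Lum (19.2 and 62.8). TNBS replicate 1 stood above every normal library for the same 4, at 354, 637, 1800 and 210 CPM. Dcn was above them in each TNBS library. In TNBS replicate 2 all smooth muscle markers but Smtn were below every normal library. So were Adgre1 of macrophages (8.4 CPM), Jchain of plasma cells (213) and Kit (63.6). With TNBS replicate 1 alone none of the 8 lists had a call. No listed marker was at 0 in all 6 libraries. The B cell gene Cd22 was at 0 in each TNBS library and had 10, 9 and 0 counts in normal colon. The macrophage gene Csf1r (7, 0 and 2 counts in TNBS colon) and the mast cell gene Mcpt4 (11, 0 and 7 counts) were at 0 in each normal library. None of these genes passed the filter on low counts, so no difference between the groups is read from them. The part of these cells in the receptor results was not tested.

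Against Ptprc (CD45, carried by leukocytes), which stood at 90.4, 31.5 and 90.4 CPM in TNBS colon and 163, 57.2 and 81.7 CPM in normal colon, the receptor ratios were as follows. Il4ra was at 1.04, 4.69 and 1.18 times the Ptprc count in TNBS colon, against 0.332, 0.825 and 0.397 times in normal colon. Csf2rb2 was at 0.214, 0.996 and 0.203 times the Ptprc count in TNBS colon, against 0.0475, 0.0803 and 0.0664 times in normal colon. Csf2rb was at 0.306, 0.809 and 0.316 times in TNBS colon, against 0.103, 0.138 and 0.0744 times in normal colon. None of these 3 ratios overlapped between the groups, and the geometric mean ratios were 3.74-fold, 5.55-fold and 4.2-fold higher in TNBS colon. Il10ra, whose level did overlap, was at 0.219, 0.249 and 0.135 times the Ptprc count in TNBS colon and at 0.0747, 0.0977 and 0.0868 times in normal colon, a geometric mean 2.27-fold higher. The exact permutation p was 0.1 for each of the 4 (adjusted p = 0.2). The ratios of Csf2ra, Il2rg and Il17ra to Ptprc overlapped between the groups. These ratios depend on the marker chosen: Ptprc itself had a log2 fold change of -0.51. Of the 8 tested leukocyte markers 3 had a positive one, among them Arhgap9 at 1.41 (median of the 8 -0.16). Ratios to leukocyte markers other than Ptprc were not computed. Against the epithelial gene Epcam, Il22ra1 was at 0.00885, 0.0135 and 0.0143 times in TNBS colon and at 0.0198, 0.021 and 0.0157 times in normal colon. All TNBS ratios lay below the normal ones, but their geometric mean was at 0.641 of normal, nearer to 1 than the 0.449 of the Il22ra1 level (exact permutation p = 0.1, adjusted p = 0.2). Epcam itself stood at 1394, 951 and 1201 CPM in TNBS colon, below 1536, 1673 and 1837 CPM in normal colon, without a call (log2 fold change -0.51, edgeR adjusted p = 0.229). Krt20, a marker of mature surface colonocytes, had a log2 fold change of -1.17 (edgeR adjusted p = 0.0964), close to that of Il22ra1, and its part in the Il22ra1 result was not tested. Other epithelial markers went the other way. Of the 10 tested, 4 had a positive log2 fold change, among them Lgals4 at 0.82 (median of the 10 -0.18). Ratios to epithelial markers other than Epcam were not computed. Il10rb was at 0.0523, 0.0858 and 0.0677 times the Epcam count in TNBS colon, above 0.0491, 0.0489 and 0.0416 times in normal colon. The level of Il10rb itself had a log2 fold change of 0.01. Of all 16 ratios 6 lay wholly above the normal ones, 2 wholly below and 8 overlapped.

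The cytokines that bind these receptors were scarce in the table. Of 21 ligand genes 10 had a row, 2 passed the filter (Il10 and Il15) and neither was called by edgeR, DESeq2 or limma-voom or had an unadjusted p under 0.05. Il10 had 8, 6 and 5 counts in TNBS colon, against 44, 13 and 14 in normal colon. All TNBS values were below the normal ones, with a log2 fold change of -1.66 (edgeR adjusted p = 0.313). The summed counts over the 3 libraries were 4 in TNBS colon and 28 in normal colon for Il13, 2 and 8 for Csf2, which encodes GM-CSF, and 7 and 7 for Il22. Il17a had 1 count in TNBS colon and 0 in normal colon. These low counts were not tested. Of 18 further chains that pair with or decoy these receptors or their ligands, 16 were tested and edgeR and limma-voom called none, while 2 higher and 1 lower had unadjusted p-values under 0.05 in edgeR (median log2 fold change -0.05). The smallest p was that of Il22ra2, which DESeq2 called lower, as did edgeR with TNBS replicate 2 alone. Il22ra2 encodes the secreted IL-22 binding protein, a decoy for IL-22. It stood at 1.5, 0.194 and 5.03 CPM in TNBS colon, all below 19.6, 11 and 6.06 CPM in normal colon (log2 fold change -2.44, SE 0.87, edgeR adjusted p = 0.169). Il3ra, the IL-3-specific partner of Csf2rb2, stood at 3, 3.3 and 2.51 CPM in TNBS colon and at 1.4, 0.635 and 0 CPM in normal colon, likewise without overlap and without a call (edgeR adjusted p = 0.29).

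Among 12 tested class I chains outside the set, 1 was called higher and none lower (median log2 fold change 0.24). This was Osmr, the receptor chain for oncostatin M, at 70.1, 121 and 67.2 CPM in TNBS colon and 24.7, 22.1 and 34.3 CPM in normal colon. All its TNBS values lay above the normal ones (log2 fold change 1.67, SE 0.28, edgeR adjusted p = 0.03). Its adjusted p ran from 0.0116 to 0.148 when single libraries were left out, and the call was lost without TNBS replicate 2 or without any 1 of the normal replicates. Of 5 tested class II chains outside the set edgeR and limma-voom called none, with 1 higher at an unadjusted p under 0.05. The smallest p among them was that of Ifnar2, a chain of the type I interferon receptor that DESeq2 called higher, at 17.4, 26.8 and 19.9 CPM in TNBS colon and 11.6, 11.5 and 7.67 CPM in normal colon (log2 fold change 1.05, edgeR adjusted p = 0.0947).

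Of 14 genes for JAK kinases, STAT factors and IL-17 receptor adaptors, 1 was called higher and 1 lower. Stat3, the factor used by the receptors for IL-10 and IL-22, stood at 307, 311 and 266 CPM in TNBS colon and at 173, 143 and 155 CPM in normal colon (log2 fold change 0.90, SE 0.17, edgeR adjusted p = 0.0384). Stat2, which serves interferon receptors, stood at 67.7, 63.7 and 81.3 CPM in TNBS colon and at 142, 121 and 153 CPM in normal colon (log2 fold change -0.97, SE 0.18, edgeR adjusted p = 0.036). Both calls were lost when any library other than TNBS replicate 1 was left out (adjusted p up to 0.189 for Stat3 and 0.13 for Stat2), and without TNBS replicate 1 there were 2 called higher. Stat6, the factor of the IL-4 receptor, had a log2 fold change of 0.31 (edgeR adjusted p = 0.431), and Stat5a and Stat5b, used by the beta chain receptors, 0.34 and 0.12, all without a call. Jak3, the kinase bound by Il2rg, was at 18.5, 38.9 and 26.8 CPM in TNBS colon and at 16.1, 9.34 and 5.55 CPM in normal colon. Its groups did not overlap, and it was not called (log2 fold change 1.44, edgeR adjusted p = 0.111).

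Of 10 feedback inhibitors edgeR and limma-voom called 1, Socs3, higher in TNBS colon, and DESeq2 called 2, Socs3 and Zc3h12a. Socs3, which is induced by Stat3 and blocks receptors of the IL-6 family, stood at 105, 156 and 92.7 CPM in TNBS colon, against 22.9, 13.1 and 14.6 CPM in normal colon (log2 fold change 2.80, SE 0.29). Its call held in each of the 6 fits that left out 1 library, with adjusted p of 0.00255 to 0.0498. Without TNBS replicate 1 there were 3 feedback inhibitors called higher. Cish, which is induced by Stat5, had a log2 fold change of 0.01 (edgeR adjusted p = 0.987) and Socs1 one of -0.28 (adjusted p = 0.722).

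Genes known as targets of the cytokines were counted without reading which cytokine drove them, since the lists share members and respond to other signals as well. These lists were chosen with earlier results of these data known, so the counts over them are descriptions and test nothing. For each target list the share of all tested genes called by edgeR was 0.906% higher and 1.14% lower. Of 8 tested targets of IL-22, 6 were called higher and none lower, and the median log2 fold change was 5.90. The 6 were Reg3b, Reg3g, S100a8, S100a9, Lrg1 and Osmr. Reg3b, an antimicrobial lectin of the epithelium, was at 995, 16996 and 7325 CPM in TNBS colon and at 119, 65.3 and 92.3 CPM in normal colon (log2 fold change 6.52, SE 0.95, edgeR adjusted p = 0.017). Reg3g, a related lectin, was at 244, 3407 and 1419 CPM in TNBS colon and at 22.8, 19 and 37.1 CPM in normal colon. These genes rose in the same libraries in which Il22ra1 fell, and TNBS replicate 1 had the lowest level of both lectins among the TNBS libraries. Fut2, which adds fucose to surface glycans, was not called, at 365, 273 and 261 CPM in TNBS colon and 214, 248 and 331 CPM in normal colon (adjusted p = 0.675). S100a8 and S100a9 are also on the neutrophil list. The 6 calls became 3 without normal replicate 1, 2 without normal replicate 2, 1 without normal replicate 3 and 3 with limma-voom.

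**Figure D4:**
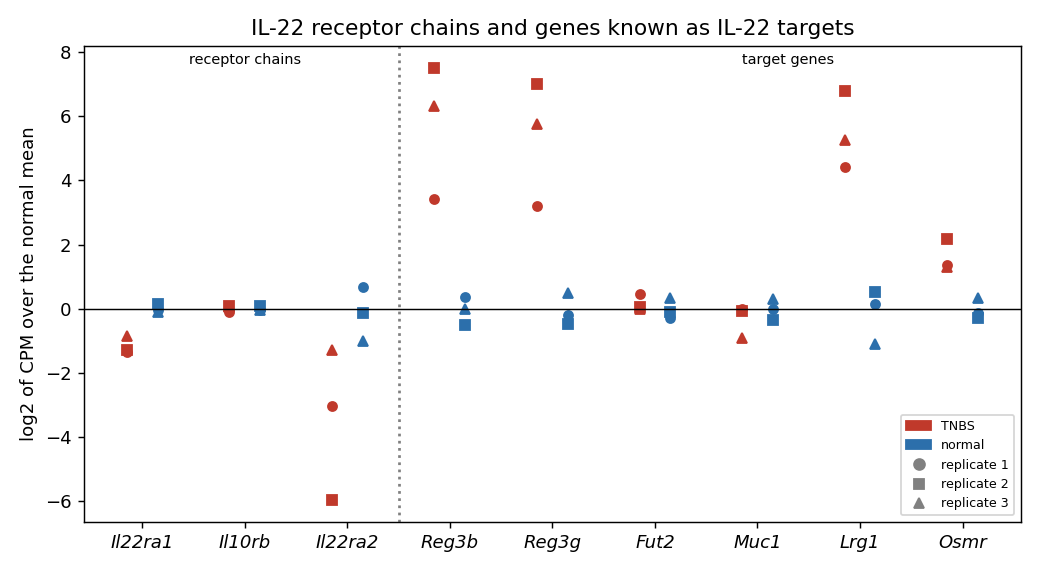
Log2 of the level in CPM over the mean of the normal libraries, for Il22ra1, Il10rb, Il22ra2 and 6 target genes of IL-22, in each TNBS library (red, left) and each normal library (blue, right), with symbols for the replicate number. S100a8 and S100a9 are left out. Below the line at 0 are the TNBS points of Il22ra1, whose level lies at 12.3 to 17.2 CPM in TNBS colon, below 28.9 to 35 CPM in normal colon. The TNBS points of Reg3b lie above the line, at 995 to 16996 CPM against 65.3 to 119 CPM in normal colon.

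Of 11 tested targets of IL-4 and IL-13, 1 was called higher and 2 lower (median log2 fold change -0.31), and 4 of the 11 had a positive log2 fold change. DESeq2 called 2 higher and 3 lower. Chil3, a chitinase-like protein of macrophages and neutrophils, was at 3.68, 50.8 and 18.8 CPM in TNBS colon and at 0.131, 0.227 and 0.0505 CPM in normal colon (log2 fold change 7.40, edgeR adjusted p = 0.0165). Its call was lost without any 1 of the normal replicates (adjusted p up to 0.103), with TNBS replicate 1 alone (adjusted p = 0.37) and with limma-voom. Itln1, a lectin of goblet cells, was at 0.454, 0.194 and 0.975 CPM in TNBS colon and at 30.8, 67.5 and 52.5 CPM in normal colon (log2 fold change -6.49, edgeR adjusted p = 0.00198), and its call held in all 6 fits without 1 library. Sprr2a3, of the epithelium, was at 58.6, 68.2 and 64 CPM in TNBS colon and at 156, 292 and 236 CPM in normal colon (log2 fold change -1.84, adjusted p = 0.0131; up to 0.0721 without normal replicate 2 or 3).

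Of 10 tested targets of IL-17, 3 were called higher and none lower, with a median log2 fold change of 3.91. Lcn2, which binds bacterial siderophores, was at 27.7, 191 and 73 CPM in TNBS colon and at 2.22, 2.45 and 2.17 CPM in normal colon (log2 fold change 5.41, edgeR adjusted p = 0.0123). The others were Saa3, an acute-phase protein (4.57, adjusted p = 0.017), and the neutrophil chemokine Cxcl2 (4.73, adjusted p = 0.0451). The 3 calls became 1 without normal replicate 1, 0 without normal replicate 2, 1 without normal replicate 3 and 1 with limma-voom, and 6 with DESeq2. Of 6 tested targets of IL-10, 1 was called, higher: Nfil3, a transcription factor, at 30.3, 36 and 20.6 CPM in TNBS colon and 4.14, 3.17 and 9.09 CPM in normal colon (log2 fold change 2.41, SE 0.42, edgeR adjusted p = 0.0328). The Nfil3 call was lost without TNBS replicate 2, normal replicate 1 or normal replicate 2 (adjusted p up to 0.138). Of 8 targets of GM-CSF none was called by edgeR, DESeq2 or limma-voom, and 1 was higher at an unadjusted p under 0.05 in edgeR (median log2 fold change 0.28), and the smallest p was that of Gpnmb, a macrophage glycoprotein, with a log2 fold change of 1.42 (edgeR adjusted p = 0.189).

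The genes whose profile over the 6 libraries was most like that of a receptor were taken from 12152 genes with a mean of at least 50 counts. Likeness was the root mean square difference of log2 CPM, each gene centred on its own mean, so a smaller value is a closer profile. For Il4ra these were Cyba, a subunit of the phagocyte oxidase (0.088), and the class I histocompatibility genes H2-Q4 (0.091) and H2-Q6 (0.095). For Csf2rb2 they were Lrrc32, the surface anchor of latent TGF-beta (0.092), Serpina3g (0.119) and Ccm2l (0.133). For Il22ra1 they were Lypd8, a protein of the colonic surface that keeps bacteria away (0.140), Cdhr2, a cadherin of the brush border (0.154), and Syne3 (0.156). For Csf2rb the nearest were Ipcef1 (0.134), Ubtd1 (0.194) and Zfp36, which destabilises cytokine mRNAs (0.210). Those of Il10ra were Pilra (0.170), Jrk (0.179) and Gpr65 (0.207), and those of Il2rg were Psmb8, a subunit of the immunoproteasome (0.097), Slc18a1 (0.138) and Ankrd37 (0.144). Il13ra1 was nearest to Fam114a1 (0.056), Spcs3 (0.063) and Kdelc2 (0.073). Il17ra was nearest to Kmt2a (0.054), Gga2 (0.057) and Prdm15 (0.072), and Csf2ra to Nuak1 (0.255), Rnf157 (0.257) and Hic1 (0.277), the most distant of the sets. Within the set, the receptor nearest to Csf2rb2 was Il4ra (0.372) and the receptor nearest to Il22ra1 was Il13ra1 (0.476). These distances are descriptions over 6 libraries that share the contrast between the groups, and the chosen genes were the closest of many.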

How the data were processed

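RNA-seq of mouse colon was read from 1 deposited table of 16906 protein-coding genes. Per the file headers it holds raw read counts, whole numbers for each gene in each library. A further 6 columns, which the header describes as normalized by edgeR, were not used. CASAVA 1.8, HISAT2 and mm10 are named in the submitters' processing notes. For the counting tool, annotation, strandedness and HISAT2 version nothing is given in the sources used here. A whole-tissue count moves with the mix of cells, and reads shared by near-identical genes may be split or dropped.

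Groups and replicate numbers came from the labels. The fit used edgeR 4.0.16 in R 4.3.3 (filterByExpr with minimum count 10 and total 15, TMM, glmQLFit and glmQLFTest with group as the only term, two-sided, Benjamini-Hochberg over 14126 genes, threshold 0.05). The SE of a log2 fold change is its size over the square root of F. DESeq2 1.42.0 (independent filtering off) and limma-voom 3.58.1, other scalings, no filter, a replicate block, leaving out libraries and summing Csf2rb with Csf2rb2 were alternatives. Ratios used counts plus 0.5 (5 as the alternative) and an exact two-sided permutation test, run in Python 3.11.15 with scipy 1.17.1. The code was tested on simulated data. Libraries held 15185569 to 23380492 counts. Replicates of 1 group were compared by chi-square, which came to 38.0 to 174 for each degree of freedom, and none was a copy of another.

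Lengths, coordinates (1-based) and coding sequences came from GENCODE vM21 (GRCm38, the same build as mm10) and promoters from RefSeq (GRCm38.p6). No protein table was used, so the WSXWS motif was searched as codons. The receptor genes and all lists were chosen with earlier results of these data known. Named genes were the 10 receptors, each list's called genes and its gene with the smallest p, and the 3 genes nearest to each receptor (those of Il10rb are not reported here); other genes named were chosen after their values were seen. Ligand genes without a row were not analysed here.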

Additional observations from a re-analysis of the deposited data

How the results depend on the processing

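The 2 receptor genes called higher became 0 with TNBS replicate 1 alone, and ran from 0 to 2 when single libraries were left out (0 without TNBS replicate 2, TNBS replicate 3, normal replicate 2 or normal replicate 3). The 1 called lower became 0 with TNBS replicate 1 alone and 0 with the replicate block, where Il22ra1 had an adjusted p of 0.0584, and ran from 0 to 2 when single libraries were left out. The replicate numbers did not pair the samples: the correlations of same-numbered deviations were 0.00547, 0.0149 and 0.0354, and the block changed no other receptor call. Among the JAK and STAT genes called higher 1 became 0 with the block, which lost Stat3. In fits with a lone TNBS library, that library is assumed to vary like the normal ones. Under TMM the median log2 fold change of all genes was 0.00727, and another scaling moved it to at most 0.0377 without changing a receptor call.

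Of 148 receptor values under alternatives 118 kept direction and call, 19 lost a call, 4 gained one and 7 changed sign. Most of the 118 were uncalled genes that stayed uncalled. All 19 losses fell on the called genes Il4ra, Csf2rb2 and Il22ra1, so the 118 say little about how firm those calls are. The sign changes were in uncalled genes: Csf2ra (-0.14 without normal replicate 3, in a range of -0.14 to 0.93 without single libraries), Il10ra (-0.09 with TNBS replicate 2 alone) and Il10rb (-0.01 without TNBS replicate 2 or 3, -1.55e-05 and -0.00111 without normal replicate 1 or 3, in a range of -0.01 to 0.06, and -0.09 with TNBS replicate 1 alone). Of 112 ratios under alternatives 3 changed sign: Csf2rb to Csf2ra (-0.49 without normal replicate 2, in a range of -0.49 to 1.38) and Il17ra to Ptprc (-0.16 without TNBS replicate 2 and -0.02 without normal replicate 1, in a range of -0.16 to 0.46). The causes were not tested. Over all genes, leaving out single libraries gave 7 to 532 higher and 11 to 576 lower calls, beside 128 and 161 with all 6. The highest counts were without TNBS replicate 1 and the lowest without normal replicate 2. Csf2ra and 8 of the 10 ligand genes in the table had too few counts in some or all libraries for small differences to be detected.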
